A study of Mus musculus with 8 samples.

Results

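H3K36me3 over 6 genes of DNA methylation maintenance and removal, Dnmt1, Uhrf1, Tet1, Tet2, Tet3 and Tdg, was described in 4 conditions of mouse embryonic fibroblasts (MEFs). The genes were taken as a named list by a rule that uses no measured value, though with earlier results of these data known, and they were 6 of 21853 protein-coding genes. The cells were i4F MEFs from 1 embryo at E13.5, called Clone 1 in the labels, which carry an OSKM (Oct4, Sox2, Klf4 and c-Myc) cassette that doxycycline switches on. The cassette was present in all groups, the uninduced ones included. All cells were kept for 72 h in medium for induced pluripotent stem cells. MEF received no addition, MEF B12 received 2 µM vitamin B12, OSKM received doxycycline, and OSKM B12 received both. Doxycycline is given as 1 µg/ml in the labels and as 1 mg/ml in the study's methods. Only the OSKM groups received it, so doxycycline itself and OSKM expression cannot be told apart. The conditions had 1 H3K36me3 library apiece, with its input, so every difference below compares single libraries, has no replicate check and carries no p-value. A library holds many cells, and fewer marked cells cannot be told apart from less mark per cell.

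DNMT1 copies CpG methylation onto the new DNA strand at replication, and UHRF1 binds hemimethylated CpGs and brings DNMT1 to them. TET1, TET2 and TET3 are iron- and oxoglutarate-dependent dioxygenases that oxidise 5-methylcytosine. TDG is a glycosylase that excises the oxidised bases formylcytosine and carboxylcytosine, and base excision repair then restores cytosine. H3K36me3 is laid down by SETD2 behind elongating RNA polymerase II, and in active genes it covers the body, increasing towards the 3′ end. The methyl group comes from S-adenosylmethionine, which is also the donor for DNMT1.

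The libraries held between 29046913 and 33399267 H3K36me3 tags and gave between 65473 and 69420 broad peaks. OSKM had the most tags and the least sequence in peaks, 92.8 Mb against 154 Mb in MEF and 166 Mb in each library with B12. With 1 library per condition, a difference in library quality and a difference between conditions cannot be told apart. All 8 fibroblast marker genes held peaks in all 4 libraries, with a summed density of 3.16 in OSKM and of 5.15 to 5.98 in the others. The 3 epithelial markers (Epcam, Cdh1, Krt8) and the 3 pluripotency markers (Pou5f1, Nanog, Dppa5a) held none in any library. Of the 2 blood markers, Ptprc held none and Cd74 had a density of 0.0685 in MEF and 0.0194 in OSKM, and of 0.171 and 0.221 with B12. Of the 2 endothelial markers, Pecam1 held none and Kdr had a density of 0.00277 in OSKM B12 only. The part of these markers in the results was not tested.

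The parts of the genes that encode the catalytic centres are shown first, because they place the peaks on the sequence of each enzyme. They were read from GRCm38.p6 (mm10), coding strand, 5′ to 3′, and each lies within 1 coding exon. Capitals mark the codons of the catalytic proline, cysteine and glutamine of Dnmt1, of the iron-binding histidine and aspartate with the residue between them in the TET genes, and of the glycine-isoleucine-asparagine-proline-glycine loop of Tdg.
Dnmt1, exon 32 of 39, chr9:20911774-20911854, minus strand: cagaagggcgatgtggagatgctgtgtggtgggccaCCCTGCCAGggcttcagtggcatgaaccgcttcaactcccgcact
Tet1, exon 11 of 13, chr10:62814436-62814510, minus strand: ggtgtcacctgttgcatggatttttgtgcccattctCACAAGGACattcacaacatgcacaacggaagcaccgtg
Tet2, exon 9 of 11, chr3:133471340-133471414, minus strand: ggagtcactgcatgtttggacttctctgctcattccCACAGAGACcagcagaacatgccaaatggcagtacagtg
Tet3, exon 10 of 12, chr6:83373194-83373268, minus strand: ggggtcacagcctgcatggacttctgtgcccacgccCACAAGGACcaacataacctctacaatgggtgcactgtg
Tdg, exon 4 of 10, chr10:82642021-82642074, plus strand: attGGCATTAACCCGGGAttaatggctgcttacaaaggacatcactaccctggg
The 75-base windows of Tet1 and Tet3 shared 54 bases, those of Tet2 and Tet3 shared 53, and those of Tet1 and Tet2 shared 51. The windows of Dnmt1, Tet2, Tet3 and Tdg lay wholly inside a peak in all 4 libraries. In OSKM the Tet1 window lay outside any peak, although it was wholly inside one in the other 3 libraries, and it fell between a peak of 1050 bases and a peak of 288 bases. Uhrf1 has no methylating or oxidising centre and no window is shown for it.

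Levels were measured over the body of the longest protein-coding transcript (GENCODE M21). The covered share is the percentage of body bases inside a peak. The density is the peak pileup per 1000000 tags, summed over the covered bases and divided by the length of the body, so that genes of unequal length can be compared. Intervals are exact 95% Poisson intervals on the estimated number of fragments and cover counting error only. For comparison, 8255 of 16344 protein-coding genes with at least 4 exons, or 50.5%, were covered over at least 10% of the body on average over the 4 libraries, and are called marked genes. Of the 6 genes, 5 were marked, and Tet1 was just outside with a mean of 9.66%.

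**Figure D1:**
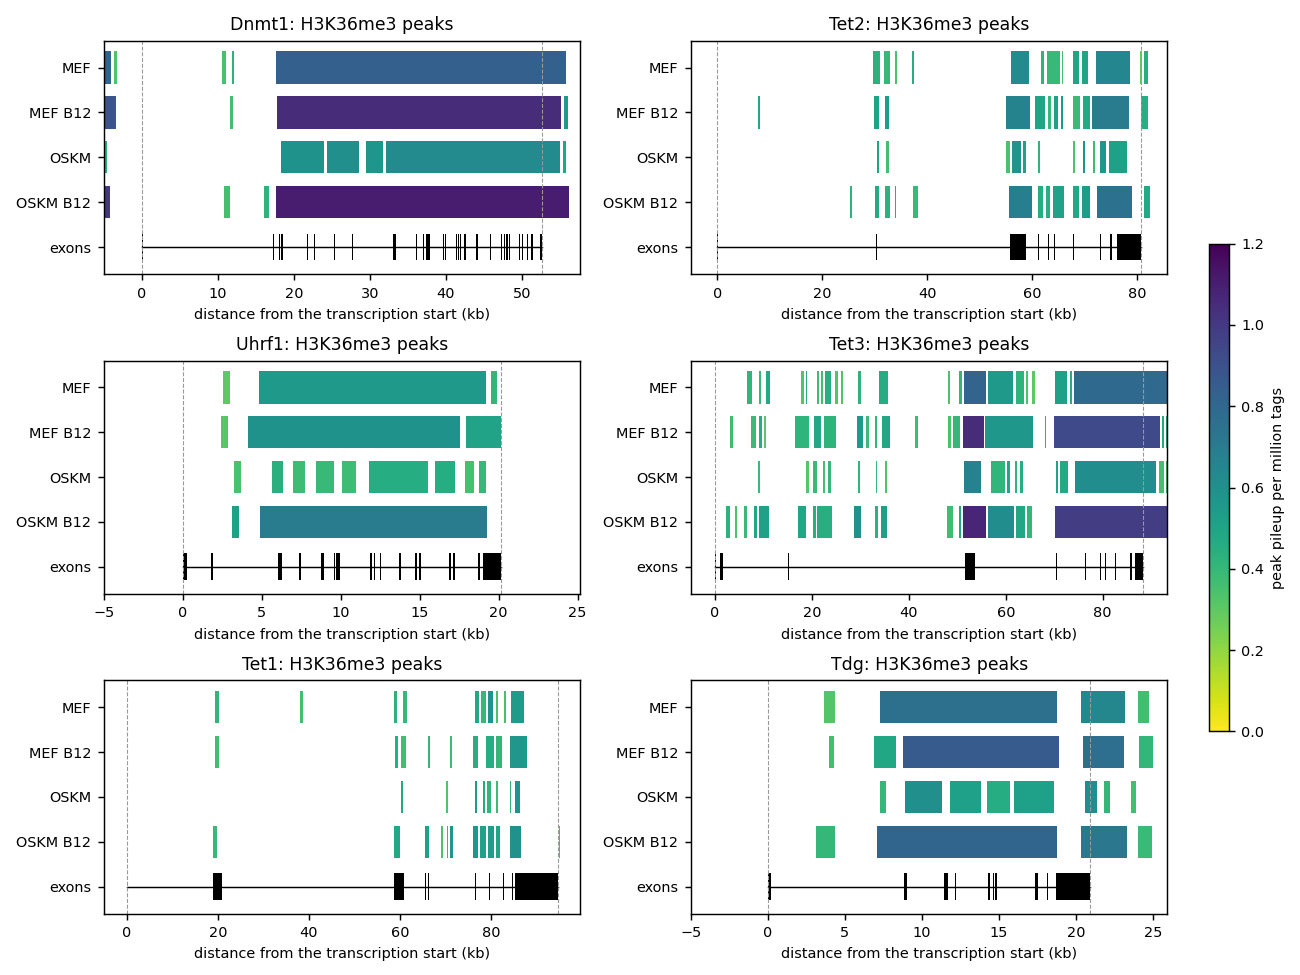
Broad H3K36me3 peaks along the 6 genes, plotted by distance from the transcription start in kb, one row per library, with colour for the pileup per 1000000 tags and exons as black boxes below; dashed lines mark the start and the end of the transcript. Dnmt1, Uhrf1 and Tdg hold 1 long peak in MEF that is in more pieces in OSKM than in the other libraries, and the TET genes have many peaks over exons and introns.

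Dnmt1 (chr9:20907209-20959888, minus strand, 52680 bases) was the most densely marked of the 6 genes. Its covered share was 68.1% in MEF and 62.0% in OSKM, and with B12 it was 66.9% in MEF and 68.9% in OSKM. Its density was 0.562 in MEF (0.543 to 0.582) and 0.382 in OSKM (0.367 to 0.398), and with B12 it was 0.698 in MEF (0.676 to 0.721) and 0.744 in OSKM (0.721 to 0.767). Both measures were lowest in OSKM. With only the more significant peaks (−log10 q of at least 5), the covered share was 39.1% in OSKM and 66.2% to 66.5% in the other libraries. The density of Dnmt1 stood above that of 86.5% of marked genes in MEF and 90.3% in OSKM, and above 89.5% and 89.6% in the same cells with B12.

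Most of the mark on Dnmt1 lay in a domain over the 3′ part of the gene, beside peaks of 304 to 680 bases in intron 1 in MEF, MEF B12 and OSKM B12. In OSKM the domain was in 4 peaks within the gene. In MEF it was 1 peak of 38150 bases, which began in intron 2, 17677 bases from the transcription start, and ended 3147 bases past the transcript. The domain began 17801 bases from the start in MEF B12, 18345 in OSKM (exon 4) and 17645 in OSKM B12. Among peaks that touch the gene, its far edge lay 2423, 2292 and 3470 bases past the transcript in the same libraries. That is short of Eif3g, the next gene, which is 8586 bases away. A separate peak past the transcript lay 55577 to 56027 bases from the start in MEF B12 and 55349 to 55737 in OSKM. It overlaps the long MEF peak and is counted where that peak is followed below. The first of 5 equal parts of the body was uncovered in all 4 libraries, and the last was wholly covered in all 4. The chosen transcript starts upstream of the others. Over the transcript with the most exon sequence, which starts further in and spans 45415 bases, the covered share was 79.0% in MEF and 71.9% in OSKM, and 77.6% and 79.9% in the same cells with B12.

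Uhrf1 (chr17:56303321-56323486, plus strand, 20166 bases) had the highest covered share of the 6 genes in all libraries but OSKM. It was 75.3% in MEF and 49.2% in OSKM, and with B12 it was 80.1% in MEF and 73.5% in OSKM. The density was 0.406 in MEF (0.380 to 0.433) and 0.207 in OSKM (0.189 to 0.227), and with B12 it was 0.457 in MEF (0.428 to 0.487) and 0.510 in OSKM (0.479 to 0.542). OSKM stood apart from the other libraries in both measures. One long peak that began in intron 2 made up most of the mark in the other libraries. It ended in the last exon in MEF (14399 bases) and OSKM B12 (14357) and in intron 15 in MEF B12 (13447), where a separate peak of 2242 bases followed. In OSKM, 9 peaks touched the gene and the longest had 3680 bases. The significance of the calls bears on these shares. With peaks of −log10 q of at least 5 alone, Uhrf1 was uncovered in MEF and OSKM and covered over 66.7% in MEF B12 and 71.2% in OSKM B12, since its main peak in MEF reached a −log10 q of 4.81.

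Tdg (chr10:82629859-82650799, plus strand, 20941 bases) was close to Uhrf1. Its covered share was 61.0% in MEF and 43.9% in OSKM, and with B12 it was 59.2% in MEF and 64.6% in OSKM. Its density was 0.446 in MEF (0.420 to 0.474) and 0.233 in OSKM (0.215 to 0.254), and with B12 it was 0.473 in MEF (0.444 to 0.503) and 0.499 in OSKM (0.469 to 0.530). The separate intervals of Tdg and Uhrf1 overlapped in every library, which does not settle the order of the pair. Tdg had the higher density in MEF, MEF B12 and OSKM, and Uhrf1 in OSKM B12. OSKM was again the low library.

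A gap at the last exon of Tdg was common to the 4 libraries. The main peak ended between 18599 and 18924 bases from the start, and a separate peak crossed the end of the gene. The stretch between them measured 1589 bases in MEF and 1969 in OSKM, and 1514 and 1530 in the same cells with B12. Of its positions, between 8.24% and 21.7% by library began a 75-base sequence found once in the assembled chromosomes. The share was 89.8% over the whole of Tdg, 95.2% over Tet2 and 97.4% to 99.5% over Dnmt1, Uhrf1, Tet1 and Tet3. The alignment kept only reads of 75 bases that mapped to 1 place, and a read that starts at any other position of this stretch has no single place. The peak across the gene end lies also on Glt8d2, on the other strand, which shares 367 bases with Tdg, and the mark there cannot be assigned to one of them. Glt8d2 itself was covered over 6.55% of its body in OSKM and over 11.99% to 14.7% in the other libraries.

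The 3 TET genes were ordered Tet3, Tet2, Tet1 in every library, with no overlap of their intervals. Tet3 (chr6:83368042-83456392, minus strand, 88351 bases) had a density of 0.274 in MEF (0.264 to 0.285) and 0.173 in OSKM (0.165 to 0.181), and with B12 it was 0.387 in MEF (0.374 to 0.4002) and 0.393 in OSKM (0.380 to 0.406). Its covered share was 44.0% in MEF and 31.6% in OSKM, and 55.1% and 52.0% in the same cells with B12. Both B12 libraries were above MEF, and OSKM was below it. Among marked genes it was near the middle, above 45.1% of them in MEF and 54.6% in OSKM.

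Tet2 (chr3:133463679-133544390, minus strand, 80712 bases) had a density of 0.127 in MEF (0.119 to 0.134) and 0.0631 in OSKM (0.0581 to 0.0684), and with B12 it was 0.151 in MEF (0.143 to 0.160) and 0.156 in OSKM (0.148 to 0.165). Its covered share was 23.7% in MEF and 12.7% in OSKM, and 25.4% and 25.5% with B12. Tet1 (chr10:62804577-62899118, minus strand, 94542 bases) had a density of 0.0482 in MEF (0.0441 to 0.0526) and 0.0211 in OSKM (0.0185 to 0.0240), and with B12 it was 0.0556 in MEF (0.0510 to 0.0606) and 0.0606 in OSKM (0.0558 to 0.0657). Its covered share was 10.5% in MEF and 4.50% in OSKM, and 11.96% and 11.7% with B12. In both genes OSKM was the low library, and the intervals of MEF B12 and OSKM B12 overlapped. Between 0.969% and 6.88% of marked genes had a lower density than Tet1, the lowest place of the 6 genes in each library.

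**Figure D2:**
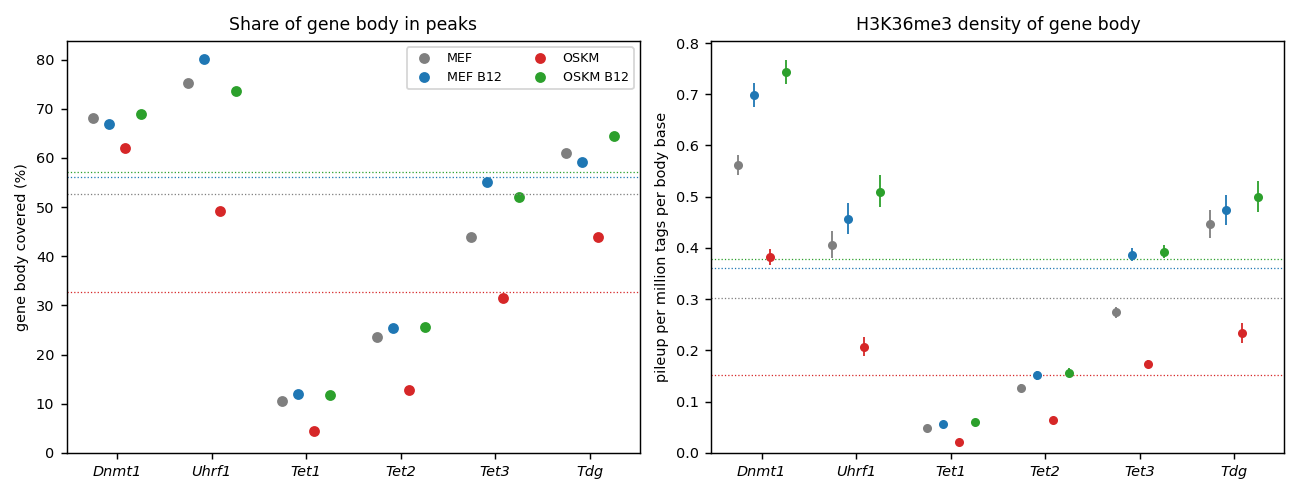
Covered share of the gene body in % (left) and density in pileup per 1000000 tags per body base (right) of the 6 genes, one point per library; bars are 95% counting intervals and dotted lines are the medians of the 8255 marked genes in the library of the same colour. Before any scaling to those medians, OSKM is the lowest library for all 6 genes in both panels, and the TET genes run from Tet3 down to Tet1.

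The mark on the TET genes was in many peaks, 16 to 22 on Tet3, 11 or 12 on Tet2 and 8 to 11 on Tet1. There were 2 to 4 on Dnmt1, 2 to 9 on Uhrf1 and 3 to 6 on Tdg, which have shorter bodies. The counts were not divided by body length. The median peak in MEF had 582 bases on Tet3, 1150.5 on Tet2 and 855.5 on Tet1, against 550 on Dnmt1, 423 on Uhrf1 and 2827 on Tdg. Each TET gene had its longest peak near the 3′ end. That peak held the window shown above, except on Tet1 and Tet2 in OSKM. The longest peak in MEF was 19103 bases on Tet3, 6510 on Tet2 and 2725 on Tet1. On Tet3 it ran 4882 bases past the chosen transcript, within another annotated transcript (79303 bases) that ends further downstream. On Tet1 it ended in the last exon, 7398 bases before the transcript end, and no library had a peak in the last 6684 bases of the body. Of the positions of Tet1, 98.9% began a 75-base sequence found once in the genome, and the longest run that did not was 105 bases. On Tet2 the share was 95.2%, and its longest such run, 1166 bases, lay outside peaks in every library.

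Away from the 3′ end, peaks of the TET genes lay in introns and at long internal exons. In MEF, Tet3 had peaks within introns 2 and 3 from 6660 to 50965 bases from the start, Tet2 within intron 2 from 31693 to 37519 and Tet1 within intron 3 from 38121 to 38727. The long exons were singled out after the peaks had been seen. Exon 4 of Tet3 (chr6:83402667-83404824, 2158 bases) was wholly covered in all 4 libraries by a peak that began in intron 3. That peak had a higher fold enrichment than 99.7% of all peaks in MEF, 99.3% in OSKM and 99.8% in each library with B12. The 2 kb of intron before the exon were covered over 35.6% in MEF and 7.75% in OSKM, and over 72.3% and 40.9% with B12. The 2 kb after it were covered over 100% in MEF and 55.65% in OSKM, and over 85.8% and 100% with B12. Exon 3 of Tet2 (chr3:133485512-133488717, 3206 bases) was covered over 92.8% in MEF and 76.8% in OSKM, and over 100% in both with B12. The 2 kb before it were covered over 0% in MEF and 34.9% in OSKM, and over 37.5% and 4.10% with B12. The 2 kb after the same exon were covered over 21.5% in MEF and 0% in OSKM, and over 53.65% and 56.8% with B12. Exon 4 of Tet1 (2203 bases) was covered over 36.6% in MEF and 18.5% in OSKM, and over 55.7% and 54.0% with B12. Its 2 kb flanks were covered over 5.8% before and 27.7% after the exon in MEF. In MEF B12 only the flank after it held a peak (20.9%), and both flanks were bare in OSKM and OSKM B12. Exon 2 of Tet1 (chr10:62878152-62880133, 1982 bases), which lay far from the other peaks, was covered over 42.7% in MEF, 42.9% in MEF B12 and 35.1% in OSKM B12 with bare flanks of 2 kb on both sides, and held no peak in OSKM.

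Exon bases were more often in peaks than intron bases in most marked genes, 80.8% of them in MEF with a median difference of 19.5 percentage points. In MEF the difference was 57.0 points in Tet2 (74.2% of exon against 17.2% of intron bases), 44.0 in Tet3, 31.4 in Dnmt1 and 18.8 in Tet1. It was -3.89 in Uhrf1 and -13.8 in Tdg, and 6.99% of marked genes had a lower value than Tdg. The last exon of Tdg holds the stretch with few unique positions described above.

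**Figure D3:**
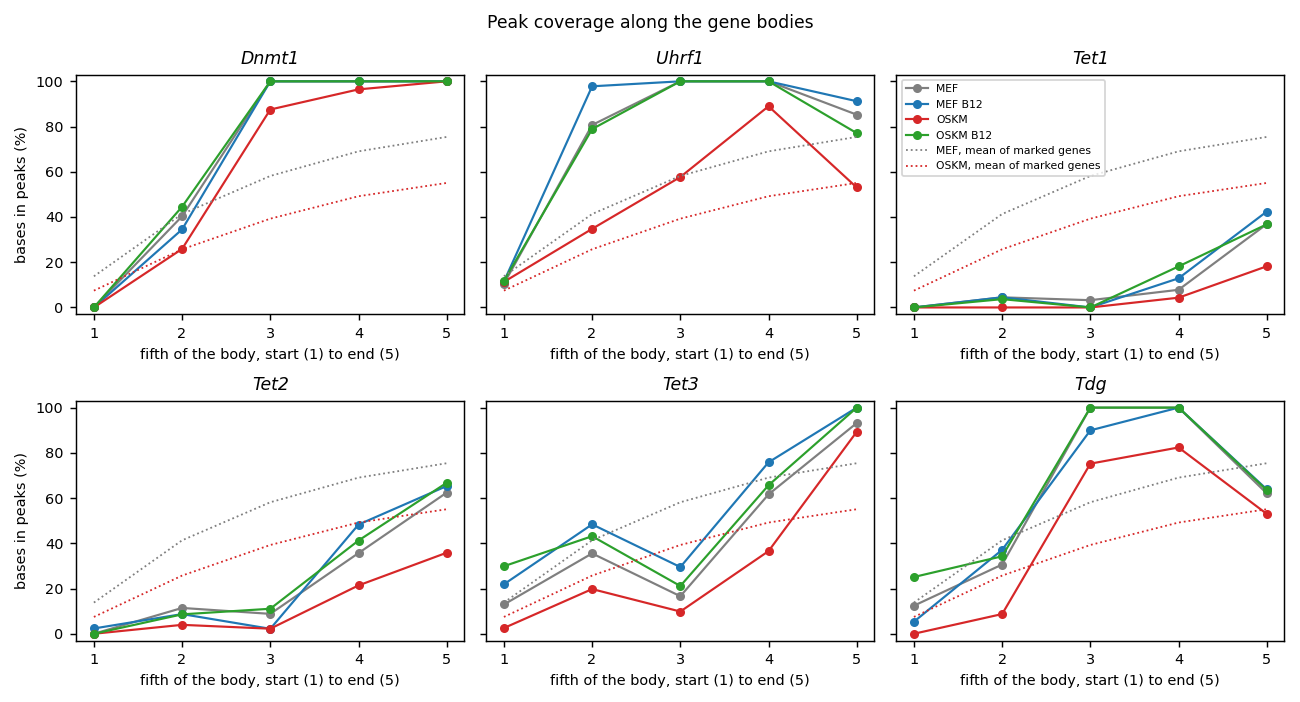
Percentage of bases in peaks in 5 equal parts of each gene body from the transcription start (1) to the end (5), one line per library, with the mean of the 8255 marked genes in MEF and OSKM dotted. In the fourth part Dnmt1, Uhrf1 and Tdg are at 100% in MEF, MEF B12 and OSKM B12 and below it in OSKM. In the last part Dnmt1 is at 100% in OSKM also, and the TET genes have their highest value there.

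None of the 9 RefSeq promoter windows of the 6 genes was touched by a peak in any library. Along the body the median over the 6 genes in MEF was 5.24% in the first part, 33.1%, 58.3% and 80.8% in the next ones and 73.8% in the last. The mean over marked genes in MEF was 13.8%, 41.3%, 58.2%, 69.0% and 75.4%. In OSKM the medians of the 6 genes were 0%, 14.2%, 33.7%, 59.5% and 53.0%.

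The first comparison asked how H3K36me3 differed between MEFs with and without OSKM. Per tag, all 6 genes had less mark in OSKM than in MEF, although after division by the median density of marked genes in each library Dnmt1, Tet3, Tdg and Uhrf1 stood at 1.02 to 1.35 times MEF. The ratio of densities was 0.680 for Dnmt1 (0.644 to 0.717), 0.630 for Tet3 (0.593 to 0.669), 0.523 for Tdg (0.471 to 0.580), 0.510 for Uhrf1 (0.456 to 0.571), 0.498 for Tet2 (0.450 to 0.551) and 0.438 for Tet1 (0.374 to 0.513). The whole list of marked genes was lower in OSKM, with a median ratio of 0.527, so the direction was not particular to these genes. The division above uses the ratio of library medians, so Tdg and Uhrf1 came out above MEF although their ratios were below 0.527. On the scale of log2(density + 0.05) the median of marked genes was -0.72 (quartiles -0.94 and -0.56). Relative to that median, Dnmt1 stood at 0.22, Tet3 at 0.18, Tet2 at 0.08, Tdg at -0.09 and Uhrf1 at -0.11. Tet1 stood at 0.25 because 0.05 is larger than its density in OSKM, and this scale makes its change smaller. The addition also bears on Tet2, whose density in OSKM was 0.0631 and whose ratio of 0.498 lay below the median of 0.527. Lower by more than 1.5-fold on that scale were 3 of the 6 genes, Uhrf1, Tet2 and Tdg, beside 71% of marked genes.

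The 6 genes differed in how far the width and the height of the mark were lower. The covered share of OSKM minus that of MEF was -6.10 percentage points for Dnmt1, -5.97 for Tet1, -11.0 for Tet2, -12.4 for Tet3, -17.2 for Tdg and -26.1 for Uhrf1, beside a median of -14.8 over marked genes. Over the bases that were in peaks in all 4 libraries, the pileup per 1000000 tags in OSKM was 0.704 times that in MEF for Tdg, 0.737 for Dnmt1, 0.774 for Uhrf1, 0.795 for Tet3, 0.864 for Tet2 and 0.976 for Tet1, with a median of 0.780 over marked genes. For Tet1 these were only 2641 bases, or 2.79% of the body, and for Tet2 10.8%, against 62.0% for Dnmt1. Bases without a called peak in OSKM are left out, so these ratios cannot show a lower height there. The long MEF peak of each gene was also followed into OSKM. On Dnmt1 it was in 5 pieces that covered 92.6% of it, on Tet3 in 3 pieces that covered 94.4%, on Tdg in 5 that covered 76.8% and on Uhrf1 in 8 that covered 65.6%. The same peaks were not whole in MEF B12 either, where Tet3 was also in 3 pieces and Dnmt1, Uhrf1 and Tdg were in 2, with 95.8% to 98.4% covered. Among 2637 marked genes whose longest MEF peak spanned at least 10 kb, the median in OSKM was 5 pieces and 81.2% covered (quartiles 70.9% and 88.9%). Of these 2637 genes, 7.13% were in 1 piece in OSKM, 66.5% in MEF B12 and 65.2% in OSKM B12. Dnmt1 and Tet3 thus lay above the upper quartile and Uhrf1 below the lower one.

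The next comparison asked how the mark differed with B12 in cells with OSKM. Per tag, all 6 genes had more mark in OSKM B12 than in OSKM, although after the same division Dnmt1, Tdg, Tet3, Uhrf1 and Tet2 were 0.784 to 0.999 times as high as in OSKM. The ratio was 2.87 for Tet1 (2.45 to 3.35), 2.48 for Tet2 (2.25 to 2.74), 2.46 for Uhrf1 (2.205 to 2.74), 2.27 for Tet3 (2.15 to 2.41), 2.14 for Tdg (1.93 to 2.37) and 1.95 for Dnmt1 (1.85 to 2.05). The median over marked genes was 2.36. Uhrf1 and Tet2 were above it, although the division by library medians put them below OSKM. Over the bases in peaks in all 4 libraries Tet1 and Tet2 had the lowest ratios and not the highest, with 1.12 for Tet1, 1.31 for Tet2, 1.52 for Tdg, 1.59 for Tet3, 1.64 for Uhrf1 and 1.79 for Dnmt1, and a median of 1.498 over marked genes. These bases leave out all that had no called peak in OSKM, which was most of the body of Tet1 and Tet2. All 6 were higher by more than 1.5-fold after the addition of 0.05, as were 96.9% of marked genes. Relative to the median of marked genes on that log2 scale, 0.99, Uhrf1 stood at 0.13, Tet3 at 0.00, Tdg at -0.04, Dnmt1 at -0.11, Tet2 at -0.12 and Tet1 at -0.35. Without the addition of 0.05 the ratios of Tet2 and Tet1 were above the median of 2.36. The covered share was higher by 24.4 percentage points on Uhrf1, 20.7 on Tdg, 20.4 on Tet3, 12.8 on Tet2, 7.21 on Tet1 and 6.94 on Dnmt1. The long MEF peaks of Dnmt1, Tet3 and Tdg were again in 1 piece in OSKM B12, wholly covered, and that of Uhrf1 was covered over 99.5%, beside a median of 98.8% over the 2637 genes. The OSKM library is in both comparisons, so a low value there lowers the first ratio and raises the second.

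**Figure D4:**
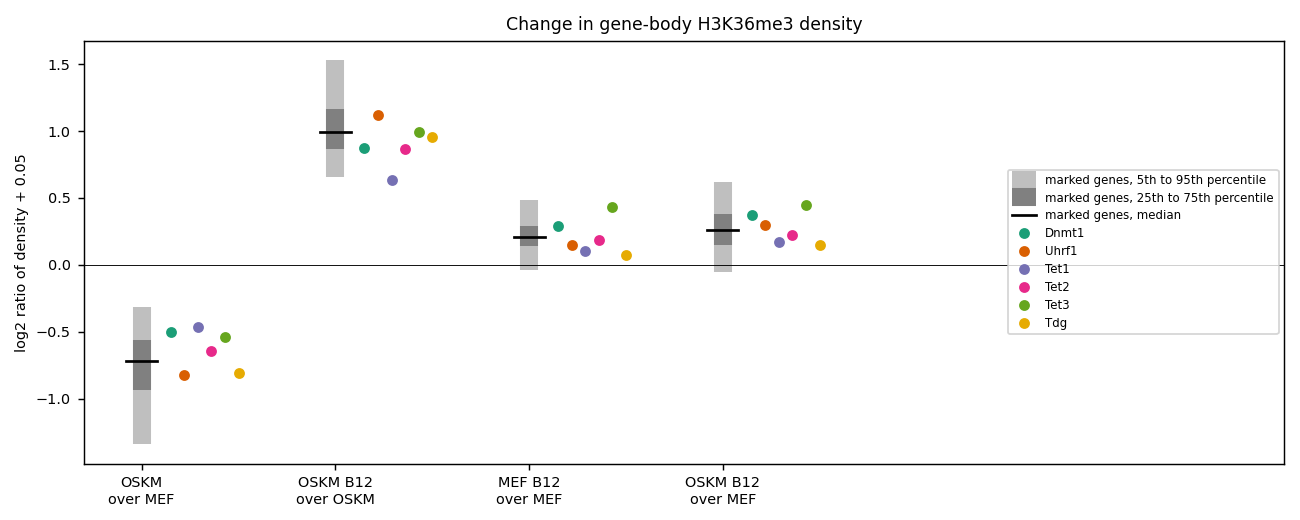
Log2 ratio of density + 0.05 in the 4 comparisons: points are the 6 genes, grey bars span the 5th to 95th and the 25th to 75th percentiles of the 8255 marked genes, and black lines are their medians (-0.72, 0.99, 0.21 and 0.26). All 6 genes share the sign of the median in each comparison, and relative to the median they lie on both sides of it.

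B12 in MEFs without OSKM gave smaller differences. After the same division Tdg, Uhrf1, Tet1 and Tet2 were lower with B12, at 0.887 to 0.999 times MEF. The ratio of MEF B12 over MEF per tag was 1.41 for Tet3 (1.34 to 1.49), 1.24 for Dnmt1 (1.18 to 1.30), 1.19 for Tet2 (1.10 to 1.30), 1.15 for Tet1 (1.02 to 1.31), 1.12 for Uhrf1 (1.02 to 1.23) and 1.06 for Tdg (0.971 to 1.16), with a median of 1.19 over marked genes. The counting interval of Tdg includes 1. None of the 6 genes passed 1.5-fold, beside 2.74% of marked genes. Tet3 had the highest value of the 6, above 92.6% of marked genes, and its covered share was higher by 11.1 percentage points, above 92.4% of them. That net difference in width was in the introns of Tet3, which were covered over 41.0% in MEF and 53.0% in MEF B12, while its exons were at 85.0% in both. Exons make up only 5944 of the 88351 bases of its body. On the log2 scale the difference between B12 in OSKM and B12 in MEF was 0.97 for Uhrf1, 0.88 for Tdg, 0.68 for Tet2, 0.59 for Dnmt1, 0.56 for Tet3 and 0.53 for Tet1, with a median of 0.78 over marked genes. Without the addition of 0.05 the ratios of Tet1, 2.87 and 1.15, are the furthest apart of the 6 genes. These differences were not tested.

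OSKM B12 was set against MEF last. After division by the median of marked genes, Tdg was at 0.896 and Tet2 at 0.990 times MEF, and with −log10 q of at least 5 Tet1 had no peak in OSKM B12. The ratio per tag was 1.43 for Tet3 (1.36 to 1.51), 1.32 for Dnmt1 (1.26 to 1.39), 1.26 for Tet1 (1.11 to 1.42), 1.26 for Uhrf1 (1.15 to 1.37), 1.23 for Tet2 (1.14 to 1.34) and 1.12 for Tdg (1.03 to 1.22), and the median over marked genes was 1.24. None of the 6 genes passed 1.5-fold, beside 6.02% of marked genes. Per tag, all 6 had their highest density in OSKM B12, as had 61.7% of marked genes, and their lowest in OSKM, as had 98.8%. The separate counting intervals of OSKM B12 and MEF B12 overlapped for all 6. Overlap of separate intervals does not settle an order, and no interval of the ratio was computed for this pair.

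Marked genes with the most similar levels over the 4 libraries were named by the distance between their log2(density + 0.05) values. They were U2af2 and Eif3b for Dnmt1, Prmt7 and Dph7 for Uhrf1, Stk24 and Slc31a2 for Tet2, Tfb2m and Dnajc11 for Tet3 and Rbbp5 and Ufsp2 for Tdg. The distances ran from 0.028 for Rbbp5 to 0.084 for Dnajc11.

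A further 28 genes of the pathway were listed by role, and 21 of them were marked. The genes at 0 in all libraries were Dnmt3l, a cofactor of de novo methylation in germ cells, Dppa3, a factor of germ cells and early embryos that binds UHRF1, Cxxc4, a partner of TET2, and Neil2, a glycosylase. In OSKM against MEF, 14 of the 21 were lower by more than 1.5-fold and 0 higher, beside the 71% of marked genes that were lower, and their median log2 ratio was -0.66. In OSKM B12 against OSKM, 19 were higher and 0 lower, beside the 96.9%, with a median of 0.98. The other 2, Dnmt3b and Apex1, did not pass but were also higher, with ratios of 1.86 and 1.30 without the addition of 0.05. The densities of Dnmt3b in OSKM and OSKM B12, 0.0247 and 0.0460, are smaller than 0.05. In the remaining comparisons 0 of 21 passed in either direction. Few marked genes were higher by more than 1.5-fold there, 2.74% for MEF B12 over MEF and 6.02% for OSKM B12 over MEF. The medians of the 21 genes were 0.25 for MEF B12 over MEF and 0.27 for OSKM B12 over MEF.

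Among the partners of DNMT1 and UHRF1, Pcna, the replication clamp, had the lowest log2 ratio of OSKM over MEF of the 21 genes. Its density was 0.274 in MEF and 0.0600 in OSKM, and with B12 it was 0.244 in MEF and 0.273 in OSKM, with log2 ratios of -1.56 for OSKM over MEF and 1.55 for OSKM B12 over OSKM. Pcna was the only one of the 21 with a lower density in MEF B12 than in MEF. Lig1, the ligase that joins Okazaki fragments, had log2 ratios of -1.04 and 1.32, and Uhrf2, the paralogue of Uhrf1, -1.10 and 1.15. Hdac1, Kat5 and Usp7, which act on histones or on the stability of DNMT1 and UHRF1, had -0.47, -0.53 and -0.48 for OSKM over MEF.

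Ogt and Dcaf1, which modify or regulate TET proteins, had a density of 0.364 and 0.403 in MEF and of 0.154 and 0.177 in OSKM. In base excision repair after TDG, 5 of 7 marked genes were lower by more than 1.5-fold in OSKM, beside 71% of all marked genes. They ran from Neil1 (log2 -1.26) to Lig3 (-0.60), while Parp1 (-0.50) and Apex1 (-0.21) did not pass. Apex1, the endonuclease that cuts abasic sites, had a density of 0.361 in MEF and 0.306 in OSKM, and of 0.521 and 0.397 with B12. Of the methyl-CpG binding genes, 3 of 4 marked ones passed, beside the same 71% of all marked genes, and Mbd3 did not (-0.55). Of the de novo enzymes, Dnmt3a was covered over 55.1% in MEF and 39.8% in OSKM, and over 58.6% and 58.8% with B12. Dnmt3b was covered over 12.8% in MEF and 7.12% in OSKM, and over 17.5% and 11.6% with B12.

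**Figure D5:**
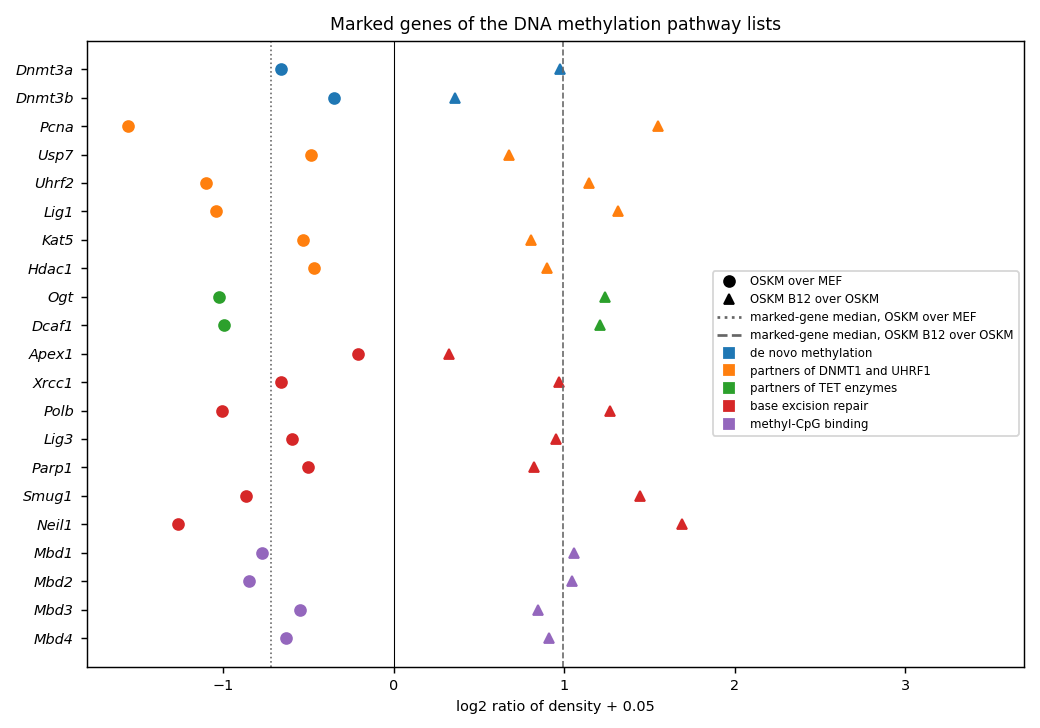
Log2 ratio of density + 0.05 of the 21 marked pathway genes, with circles for OSKM over MEF, triangles for OSKM B12 over OSKM, colours for the role and vertical lines for the medians of the 8255 marked genes (-0.72 and 0.99). All circles lie below 0 and all triangles above it, with Pcna the furthest to the left. Relative to the median lines, both circles and triangles lie on either side.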

How the data were processed

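H3K36me3 ChIP–seq was measured in 4 conditions of MEFs at 72 h. The authors aligned single-end reads of 75 bases to mm10 with bowtie (version 0.12.9 in the submitters' notes), kept reads with 1 alignment, removed duplicates and called broad peaks with MACS2 2.2.6 on each library against its own input. The antibody is written H3K3me3 in the protocol and H3K36me3 in the sample tags. The deposited pileup is a coverage signal, the mean number of extended fragments over a peak. The authors' fold enrichment is a ratio to the input, and significance is deposited as −log10 p and −log10 q.

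With Python 3.11.15, numpy 2.4.6 and scipy 1.17.1, pileup was divided by tags (29046913 to 33399267 per library) and summed over gene bodies. Fragments were estimated as summed pileup divided by the fragment length (288 to 292 bases). Marked genes, the pseudocount of 0.05 and 1.5-fold are explained above. The last peak base of each of 21 chromosomes lay inside the GRCm38.p6 length. Scripts were tested on simulated data. Named were the 6 genes, 28 pathway genes by role, overlapping genes and the 2 nearest marked genes of each marked gene. Genes and lists were chosen with earlier results of these data known. Unplaced scaffolds (1 to 16 peaks) and reads outside peaks were not used here. Alternatives changed the peak set, gene model, scaling, bases used, pseudocount and filter. The cells' identity and the samples' groups came from the labels.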

Additional observations from a re-analysis of the deposited data

Results flagged for a closer look

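The covered share moved in opposite directions with B12 in the 2 states for Dnmt1 and Tdg. On Dnmt1 it was -1.16 percentage points in MEF B12 against MEF and 6.94 in OSKM B12 against OSKM. On Tdg it was -1.77 in MEF B12 against MEF and 20.7 in OSKM B12 against OSKM. The difference was not tested, since each condition had 1 library. The density per tag of both genes was higher with B12 in both states, but the counting interval of Tdg for MEF B12 over MEF includes 1. After division by the median of marked genes Tdg was lower with B12 in both states (0.887 and 0.861) and Dnmt1 lower in OSKM B12 than in OSKM (0.784). Among the 8255 marked genes, 28.4% had opposite signs of covered share and 6.90% of density.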

How the results depend on the processing

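No paired analysis was possible because the labels pair no libraries and 1 library stands for each condition, and no replicate could be left out. The direction of the median density ratio of the 6 genes was kept under every alternative to the peak set (other than −log10 q of at least 5, where a density of 0 left no median) and to the gene model. Division of each density by the median of marked genes in its library set each gene against the ratio of library medians. After it the median of the 6 genes was 1.03 for OSKM over MEF and 0.954 for OSKM B12 over OSKM. It was 0.982 for MEF B12 over MEF and 1.01 for OSKM B12 over MEF. The median of the marked genes' own ratios is another reference, at 0.527 for OSKM over MEF and 2.36 for OSKM B12 over OSKM. Beside it the 6 genes had undivided medians of 0.517 and 2.37. Under the division the OSKM over MEF ratio of Dnmt1 was 1.35, of Tet3 1.25, of Tdg 1.04 and of Uhrf1 1.02. For OSKM B12 over OSKM it gave 0.784 for Dnmt1, 0.861 for Tdg, 0.916 for Tet3, 0.991 for Uhrf1 and 0.999 for Tet2. For MEF B12 over MEF it gave 0.887 for Tdg, 0.941 for Uhrf1, 0.965 for Tet1 and 0.999 for Tet2, and for OSKM B12 over MEF 0.896 for Tdg and 0.990 for Tet2. Over bases in peaks in all 4 libraries the median was 0.784 for OSKM over MEF and 1.56 for OSKM B12 over OSKM, and Tet1 was at 0.962 for MEF B12 over MEF. Without division by tags it was 2.10 for OSKM B12 over OSKM, 1.05 for MEF B12 over MEF and 1.14 for OSKM B12 over MEF, with Tdg at 0.945 for MEF B12 over MEF. With fold enrichment in place of pileup it was 2.08 for OSKM B12 over OSKM and 1.13 for OSKM B12 over MEF. With −log10 q of at least 5, Tdg was at 0.997 for MEF B12 over MEF, and Tet1 fell to 0 for OSKM B12 over MEF because no peak was left. The number of marked genes past 1.5-fold was 1563 with that peak set, 384 with a pseudocount of 0.02 and 102 with 0.1, against 226, for MEF B12 over MEF, and 2059, 749 and 250 against 497 for OSKM B12 over MEF. The cause of these shifts was not tested. The counts for the other comparisons stayed within 1.5 times. A peak list holds no signal below the caller's threshold, so a gene at 0 is one without a called peak.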
